A study of Mus musculus with 24 samples.

Results

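The Gimap genes (GTPases of immunity-associated proteins) form a small family that lies as one cluster in the mouse genome, and 8 of the 26267 genes in the deposited table carry their symbols: Gimap1, Gimap3, Gimap4, Gimap5, Gimap6, Gimap7, Gimap8 and Gimap9. The members were picked by symbol, but the family was selected on a measured value, the lower Gimap6 level after poly(I:C), which was known when the family was chosen. Poly(I:C) against PBS is therefore given below for these genes as a description without a test, and tests are given for the genotypes. The RNA came from sorted mouse bone marrow LSK cells, the lineage-negative, Sca-1-positive, Kit-positive fraction that holds hematopoietic stem cells and early progenitors. Poly(I:C) is a synthetic double-stranded RNA that sets off interferon production, and PBS was its vehicle.

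There were 24 libraries in 8 groups, each of 4 genotypes with PBS or with poly(I:C). WT had 4 PBS and 3 poly(I:C) libraries. FancgKO, which lacks Fancg, a subunit of the Fanconi anemia core complex for DNA crosslink repair, also had 4 and 3. Mdm4Tg, which carries a transgene for the p53 inhibitor Mdm4, had 3 and 2, as did FancgKO_Mdm4Tg, which combines both alleles. Age, sex, dose, time of sampling and the promoter of the transgene are not given in the labels. No label says that libraries came from separate animals, so p-values reflect the spread among these libraries alone, which may be technical. Libraries are named here by the number that opens their title (2, 4, 6, 7 or 8).

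Gimap proteins are GTP-binding proteins of lymphocytes, most of them held on the membranes of lysosomes, the endoplasmic reticulum or other organelles, and they are best known for the survival of resting T and B cells. Gimap5 is needed for lymphocyte survival and, in mice, for the fitness of hematopoietic stem cells. Gimap1 is needed for mature B and T cells, Gimap6 binds an ATG8 protein of the autophagy machinery, and Gimap4 speeds the death of T cells. Gimap3 is a close relative of Gimap5 that influences the inheritance of mitochondrial DNA variants in blood cells, and Gimap8 is the longest member, with several GTPase domains in a single protein.

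The 8 genes lay within 123.6 kb of chromosome 6, at chr6:48647234-48770851 (mm10, with gene positions from the GENCODE annotation of the same assembly), in the order Gimap8, Gimap9, Gimap4, Gimap6, Gimap7, Gimap1, Gimap5, Gimap3. Gimap6 and Gimap3 were on the minus strand and the other 6 on the plus strand. The longest open reading frame of Gimap8 had 2067 bases, and those of the other members had 876 to 987. Gimap3 and Gimap5 were identical at 90.3% of aligned coding positions and shared an unbroken run of 140 bases, so reads of these 2 genes may have been split or lost in counting, and both are uncertain. An annotated readthrough gene, Gm28053, overlapped Gimap7, Gimap1 and Gimap5 and shared runs of 81, 198 and 154 bases with them, but it had only 25 reads in all libraries.

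Promoters from RefSeq (GRCm38.p6), 250 bases before to 50 after each annotated start, were found for all 8 members, with 2 overlapping windows for Gimap8. Shown are the windows of the member with the most RNA (Gimap6), of those with the largest and the smallest difference after poly(I:C) (Gimap8, second window, and Gimap9), and of 1 with both motifs found (Gimap1). Capitals mark exact matches, in either orientation, to AGGAAG, called the ETS core here, or TGTGGT, called the RUNX core. These are forms of the binding motifs of factors active in blood cells, and other forms were not searched.
Gimap6, chr6:48708195-48708494, minus strand: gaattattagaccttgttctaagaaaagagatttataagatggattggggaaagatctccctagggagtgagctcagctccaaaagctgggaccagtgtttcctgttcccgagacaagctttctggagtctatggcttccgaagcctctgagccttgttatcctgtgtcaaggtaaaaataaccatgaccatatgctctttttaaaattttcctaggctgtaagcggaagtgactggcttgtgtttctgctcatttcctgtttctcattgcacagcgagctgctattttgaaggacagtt
Gimap8, chr6:48647111-48647410, plus strand: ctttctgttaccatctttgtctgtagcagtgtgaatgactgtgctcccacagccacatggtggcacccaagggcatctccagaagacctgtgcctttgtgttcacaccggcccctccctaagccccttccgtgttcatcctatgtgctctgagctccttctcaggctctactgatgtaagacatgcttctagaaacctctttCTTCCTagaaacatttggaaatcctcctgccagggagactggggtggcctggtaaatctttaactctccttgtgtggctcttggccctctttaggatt
Gimap9, chr6:48675885-48676184, plus strand: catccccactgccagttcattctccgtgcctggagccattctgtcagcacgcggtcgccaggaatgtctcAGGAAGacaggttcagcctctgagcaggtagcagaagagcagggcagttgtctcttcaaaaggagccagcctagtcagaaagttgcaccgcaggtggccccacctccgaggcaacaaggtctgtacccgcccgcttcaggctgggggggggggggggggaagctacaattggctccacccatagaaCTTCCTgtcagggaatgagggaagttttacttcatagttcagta
Gimap1, chr6:48738797-48739096, plus strand: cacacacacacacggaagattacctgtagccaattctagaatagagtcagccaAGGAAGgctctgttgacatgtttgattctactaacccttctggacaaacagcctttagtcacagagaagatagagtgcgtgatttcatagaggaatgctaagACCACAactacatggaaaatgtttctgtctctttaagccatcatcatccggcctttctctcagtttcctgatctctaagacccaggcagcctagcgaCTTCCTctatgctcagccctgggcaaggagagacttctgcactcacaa

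The ETS core was in 7 of the 9 member windows, against 35.35% of all 32851 RefSeq promoter windows of the same length, and the RUNX core was in 3 of 9, against 16.76%. Gimap6 and the first Gimap8 window held neither exact sequence. The Gimap6 window holds the related sequence cggaagt, which was not counted. The GATA core AGATAA (11.18% of all windows), the interferon-stimulated response element, GAAA repeated after any 2 bases (3.443%) and the E-box CACGTG (7.15%) were in none of the 9. Only these forms were searched, and variants such as agatag, which the Gimap1 window holds, were not counted. Both strands were searched, and no match or its absence shows whether a factor binds.

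Total reads per library ran from 807686 to 8229715 (median 2583130), and the table gives normalised counts, so a value means the reads of a gene after scaling the libraries to a common size. The PBS libraries were shallower than the poly(I:C) libraries, with group medians of 1406126 to 3167348 against 3234857 to 5643230 reads. Kit, the receptor used in the sort, was at 1710 to 2414 with PBS and at 1483 to 2075 with poly(I:C). By limma it was lower with poly(I:C) averaged over genotypes (log2 difference -0.26, adjusted p = 0.012), as were 11.6% of all genes tested. Ly6a, which encodes Sca-1, was at 11.7 to 45.9 and was not called (adjusted p = 0.518 by limma). Mdm4 was at 5023 to 7105 in the 10 transgenic libraries and at 751 to 1293 in the other 14. Fancg was at 26.1 to 71.4 in the 12 knockout libraries and at 41.3 to 78.4 in the other 12, and a total over all exons cannot check a deletion of part of the gene. Xist RNA exceeded 1000 in 5 libraries, which were replicates 6 and 7 of FancgKO with PBS, replicates 6 and 7 of WT with poly(I:C), and replicate 6 of FancgKO with poly(I:C).

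Every member had reads in these cells, at very different levels. In WT libraries with PBS, Gimap6 was highest per exon length, at 75.8 ± 16.1 normalised counts per kilobase of exon (SD, n = 4). Gimap9 followed at 39.9 ± 6.34, Gimap8 at 23.9 ± 14.8, Gimap1 at 17.7 ± 5.79 and Gimap5 at 9.68 ± 3.71 (n = 4 each). Gimap7 at 3.36 ± 2.44, Gimap4 at 3.09 ± 1.63 and Gimap3 at 1.51 ± 1.18 closed the order (n = 4 each). Gimap6 stood apart from Gimap9 by more than their SDs, as Gimap5 did from Gimap7, and every other pair of neighbours in this order overlapped within 1 SD. Gimap6 gave 33.6% to 62.4% of the summed Gimap normalised counts of each library.

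Reads limited 3 of the members. Over all 24 libraries Gimap6 had 4350 reads, Gimap9 1641, Gimap8 1451, Gimap1 873 and Gimap5 728. Gimap7 had 181, Gimap4 79 and Gimap3 49, with 0 reads in 1, 2 and 5 libraries. For a library with 0 reads, counting error alone allows up to 3 reads. The filter used for testing, 2 libraries or more at a normalised count of 10 or higher, kept 12628 genes and 6 of the 8 members. Gimap3 and Gimap4 did not pass it and have values but no fitted difference. Gimap7 reached 10 in 6 libraries, all of them with PBS, and was at 6.78 or lower with poly(I:C).

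**Figure D1:**
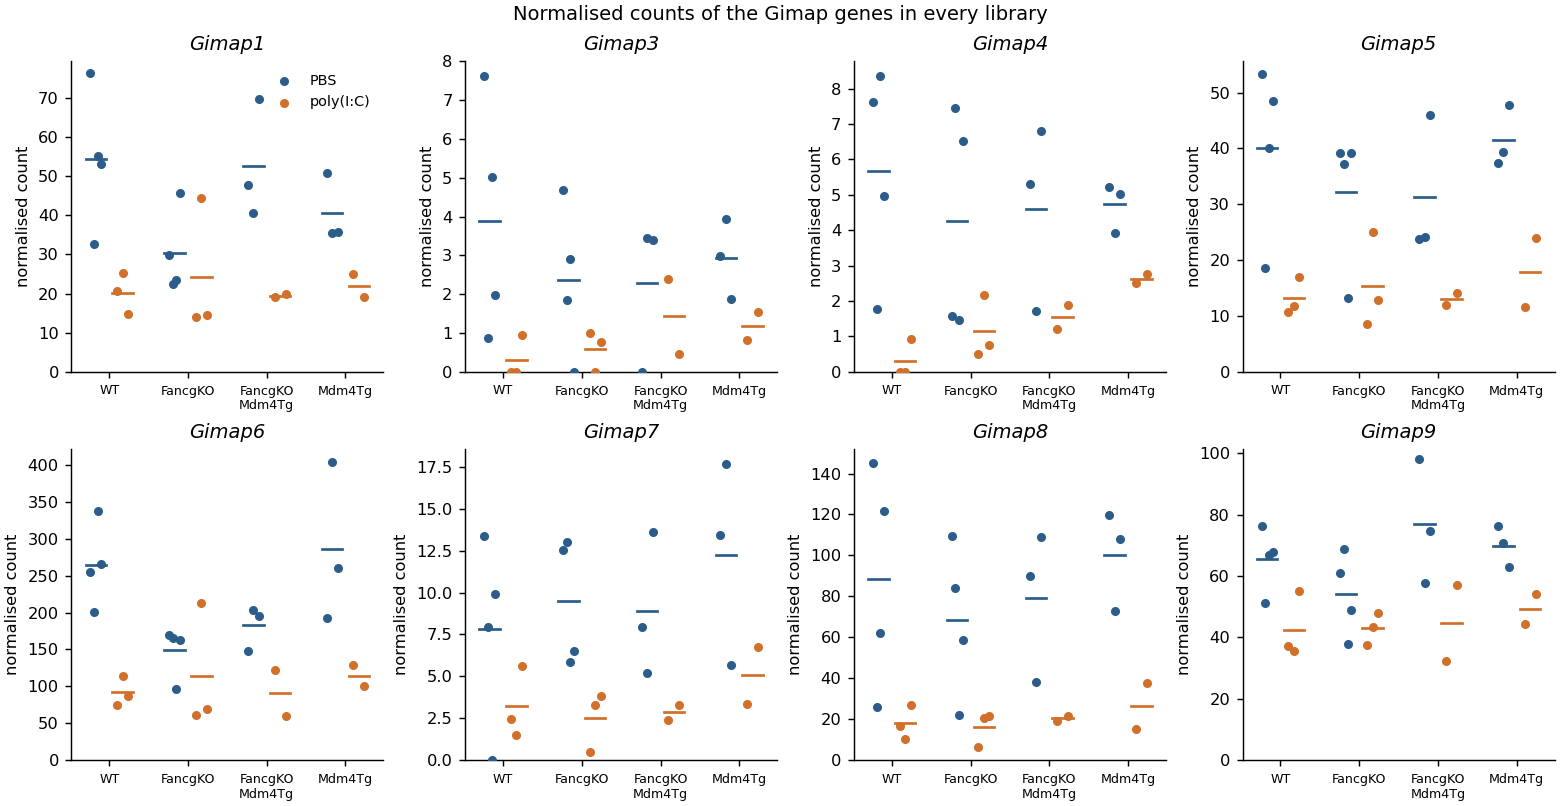
Normalised counts (vertical axes, each starting at 0) of the 8 Gimap genes in every library, by genotype (horizontal axes); blue points are PBS libraries, orange points poly(I:C) libraries, and bars group means. Most orange points lie below the blue points of the same genotype; for Gimap6 the highest poly(I:C) point, 212.7 in FancgKO, lies above all 4 PBS points of that genotype.

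Fitted differences between poly(I:C) and PBS were below 0 for all 6 members kept in all 4 genotypes. Gimap7 was kept through PBS libraries alone, which favours a lower poly(I:C) value, so its sign carries no weight. Some were close to their SE, such as -0.67 ± 0.71 for Gimap7 in WT and -0.30 ± 0.24 for Gimap9 in FancgKO (log2, SE). Gimap6 with PBS was at 256, 201, 338 and 266 in WT replicates 2, 6, 7 and 8, and with poly(I:C) at 75.0, 114 and 86.7 in WT replicates 6, 7 and 8. In FancgKO it was at 169, 166, 96.4 and 163 with PBS (replicates 2, 4, 6 and 7) and at 60.4, 213 and 69.0 with poly(I:C) (replicates 6, 7 and 8). The WT groups did not overlap, whereas in FancgKO the poly(I:C) library of replicate 7 was above all 4 PBS libraries. In FancgKO_Mdm4Tg it was at 149, 204 and 196 with PBS (replicates 2, 7 and 8) and at 122 and 59.9 with poly(I:C) (7 and 8). Mdm4Tg libraries were at 192, 405 and 261 with PBS (replicates 2, 7 and 8) and at 129 and 99.8 with poly(I:C) (7 and 8). Neither pair of groups with the transgene overlapped. On the log2(normalised count + 1) scale the fitted difference, poly(I:C) minus PBS averaged over the genotypes, was -1.11 ± 0.19 for Gimap6 (SE), or 0.464 of the PBS level.

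Gimap8 had the largest difference of the members kept. With PBS it was at 145, 25.7, 61.9 and 122 in WT replicates 2, 6, 7 and 8, and with poly(I:C) at 16.5, 10.3 and 26.9 in replicates 6, 7 and 8. FancgKO libraries were at 110, 83.8, 21.9 and 58.8 with PBS (replicates 2, 4, 6 and 7) and at 6.49, 20.6 and 21.6 with poly(I:C) (replicates 6, 7 and 8). The WT groups met only because replicate 6 was low with PBS, and the FancgKO groups did not overlap. In FancgKO_Mdm4Tg it was at 90.2, 37.9 and 109 with PBS against 19.2 and 21.7 with poly(I:C). Mdm4Tg libraries were at 120, 72.7 and 108 with PBS against 15.0 and 37.6 with poly(I:C). The averaged log2 difference of Gimap8 was -1.95 ± 0.31 (SE), or 0.259 of the PBS level, and in each genotype it lay between -2.07 and -1.77.

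Gimap5, the member known for stem cell fitness, ran from 13.2 to 53.4 over the 14 PBS libraries (median 39.2) and from 8.49 to 25.0 over the 10 poly(I:C) libraries (median 12.4). In WT it was at 53.4, 18.6, 40.1 and 48.6 with PBS (replicates 2, 6, 7 and 8) and at 10.7, 11.8 and 16.9 with poly(I:C) (6, 7 and 8). These WT groups did not overlap, although replicate 6 with PBS was close to replicate 8 with poly(I:C). Its averaged log2 difference was -1.22 ± 0.23 (SE).

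Gimap1, needed for mature lymphocytes, ran from 22.4 to 76.3 with PBS (median 43.1) and from 14.0 to 44.5 with poly(I:C) (median 19.5), and its averaged log2 difference was -1.003 ± 0.196 (SE). The poly(I:C) value of 44.5 was FancgKO replicate 7, and the other 9 poly(I:C) libraries were at 25.1 or lower. Gimap9 ran from 38.0 to 98.1 with PBS (median 67.4) and from 32.4 to 57.1 with poly(I:C) (median 43.8), and had the smallest averaged log2 difference, -0.56 ± 0.13 (SE). Its ranges overlapped widely between treatments. Gimap7 ran from 0 to 17.7 with PBS (median 8.94) and from 0.499 to 6.78 with poly(I:C) (median 3.28), and had an averaged log2 difference of -1.17 ± 0.39 (SE) resting on few reads.

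The 2 members below the filter had lower medians with poly(I:C) as well. Gimap4 had 54 reads over the 14 PBS libraries and 25 over the 10 deeper poly(I:C) libraries, with median normalised counts of 5.13 and 1.07. Gimap3 had 33 and 16 reads, with medians of 2.96 and 0.796. Both were within a few reads of 0 in most libraries.

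In 9 cases a genotype had a PBS and a poly(I:C) library with the same replicate number. A shared number did not mean matching Xist levels. Xist exceeded 1000 with poly(I:C) but not with PBS in WT replicates 6 and 7, and with PBS but not with poly(I:C) in FancgKO replicate 7. Gimap1, Gimap4, Gimap5, Gimap8 and Gimap9 were lower with poly(I:C) in 9 of 9. Gimap3 and Gimap6 were lower in 8 of 9, the exception being FancgKO replicate 7, where Gimap3 was at 0 in both libraries. Gimap7 was lower in 7 of 9, the exceptions being WT replicate 7, at 0 with PBS, and Mdm4Tg replicate 8.

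Counted by genotype, every poly(I:C) library was below every PBS library for 3 of the 6 members kept in WT (Gimap1, Gimap5 and Gimap6), where 5.72% of all genes kept had this pattern. It held for 2 in FancgKO (Gimap7 and Gimap8; background 2.44%), all 6 in FancgKO_Mdm4Tg (background 12.2%) and 5 in Mdm4Tg (all but Gimap7; background 18.9%). Without WT replicate 6 the WT count was 5, all but Gimap7 (background 15.8%). Without the poly(I:C) library of FancgKO replicate 7 the FancgKO count was 5, all but Gimap9 (background 10.3%). The median log2 difference of the 6 members was -1.41 in WT, -0.80 in FancgKO, -1.21 in FancgKO_Mdm4Tg and -1.16 in Mdm4Tg, and -1.14 on average over genotypes, where the median of all genes kept was 0.01. The FancgKO median was -1.28 without the poly(I:C) library of replicate 7. Gimap7 passed the filter through PBS libraries alone, which favours a lower poly(I:C) value, so its part in these counts and medians carries no weight. In bulk RNA of this kind, fewer cells of a type and less RNA per cell cannot be told apart.

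**Figure D2:**
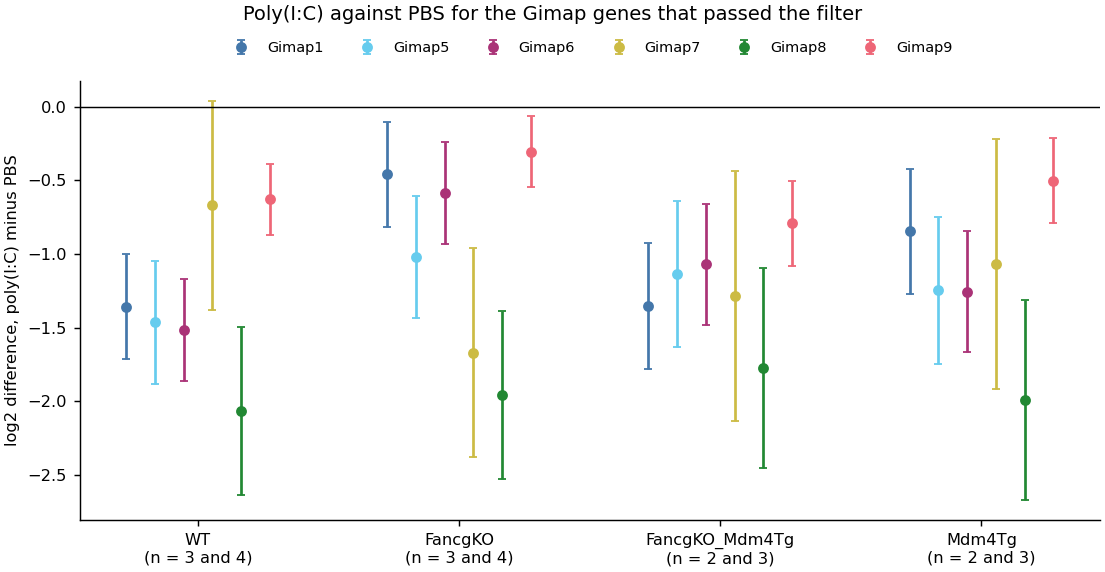
Fitted log2 difference between poly(I:C) and PBS libraries (vertical axis, points with SE bars) for the 6 Gimap genes that passed the filter, by genotype (horizontal axis, with the numbers of poly(I:C) and PBS libraries). All 24 points are below 0, Gimap8 between -2.07 and -1.77, and the Gimap1, Gimap5, Gimap6 and Gimap9 points of FancgKO are nearest to 0 among the genotypes. Gimap7 was kept through PBS libraries alone, so the sign of its points carries no weight.

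The libraries that stood apart for the Gimap genes also stood apart for granule and other myeloid progenitor genes. The summed normalised count of 20 myeloid progenitor genes (among them Mpo and Elane) was 16870 in WT replicate 6 and 18600 in FancgKO replicate 6 with PBS, against 3312 to 9248 in the other 12 PBS libraries. In these 2 libraries the mean standardised level of the 6 members kept was -0.003 and -0.70, the lowest of the PBS libraries. The same myeloid sum was 8830 in FancgKO replicate 7 with poly(I:C), the lowest of the 10 poly(I:C) libraries, which ran up to 29010, and there the Gimap level was the highest of those 10, at -0.10. The part of myeloid RNA in the Gimap differences was not tested.

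Genes next to the cluster were fitted in the same way. Within 300 kb on either side or inside the cluster lay 23 other measured genes, of which 12 passed the filter. The share of all genes kept that limma called lower with poly(I:C), averaged over genotypes, was 11.6%, and 4 of these 12 neighbours were called lower and none higher. They were Gimap1os, a transcript antisense to Gimap1 (log2 difference -1.41 ± 0.27 SE, adjusted p = 0.00142), Gm5111 (-1.14, adjusted p = 0.014), Zfp467 (-0.96, adjusted p = 0.00132) and Tmem176a (-0.39, adjusted p = 0.00306). Since no source used here says whether counting kept the strand, reads of Gimap1os and Gimap1 cannot be told apart where they overlap. Repin1 (-0.31, adjusted p = 0.0648) and Tmem176b (-0.21, adjusted p = 0.0778) on either side of the cluster were not called. AI854703, the nearest gene kept before Gimap8, was at 5.89 to 20.4 with PBS and at 4.99 to 15.8 with poly(I:C), with a log2 difference of -0.11 (adjusted p = 0.73).

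**Figure D3:**
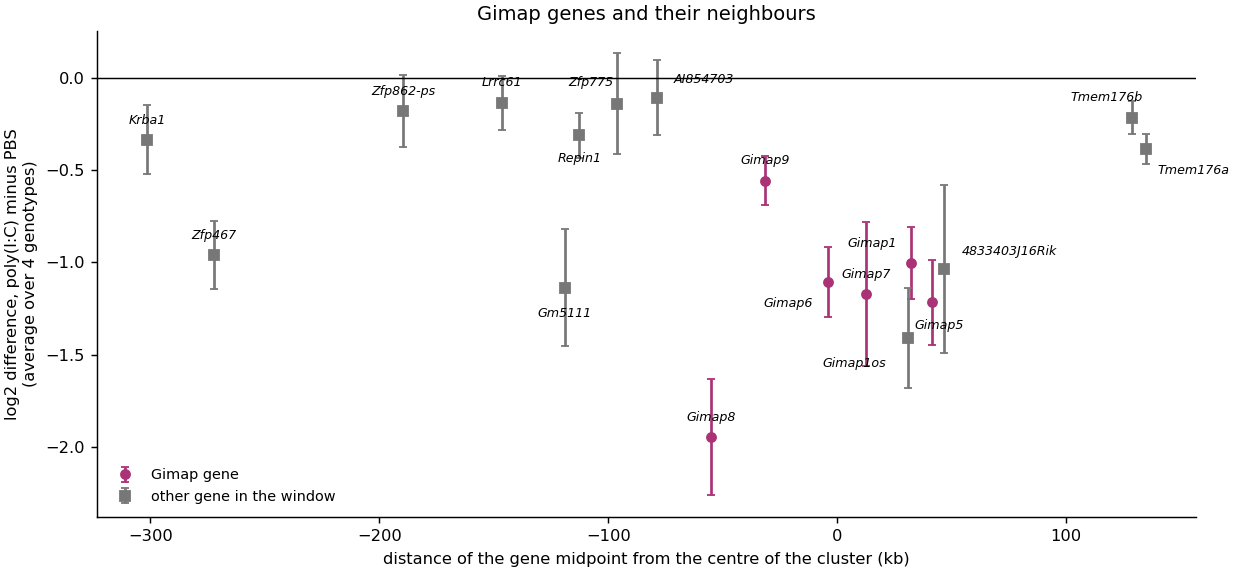
Log2 difference between poly(I:C) and PBS averaged over the 4 genotypes (vertical axis, points with SE bars) against the distance of each gene's midpoint from the centre of the Gimap cluster in kb (horizontal axis); purple circles are Gimap genes, grey squares the 12 neighbours that passed the filter. The Gimap points lie between -1.95 and -0.56, and the neighbours between -1.41 (Gimap1os) and -0.11 (AI854703).

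Loss of Fancg was compared first in PBS libraries, where no poly(I:C) had been given. Gimap6 was at 149 ± 34.9 in FancgKO and 265 ± 56.3 in WT (SD, n = 4 each), a log2 difference of -0.84 (95% interval -1.50 to -0.18), and Gimap1 was at 30.3 ± 10.8 and 54.3 ± 17.8, a log2 difference of -0.82 (-1.50 to -0.14). All 4 FancgKO libraries were below all 4 WT libraries for Gimap6 alone among the 6 members, where 1.08% of all genes kept had this pattern. Neither gene passed limma's test after adjustment over 12628 genes (adjusted p = 0.999 for both), although both had an unadjusted p under 0.05. No gene of the table passed (0.0% called) by limma, edgeR or DESeq2, while 497 had an unadjusted p under 0.05. Blocked on the replicate number, limma called 4 genes, no member among them. With that block Gimap6 was at -0.92 (95% interval -1.36 to -0.48, adjusted p = 0.145 by limma). Gimap1 was then at -0.72 (-1.36 to -0.08, adjusted p = 0.41 by limma).

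The Gimap6 values of FancgKO and WT were set beside other measures of the same libraries. Xist was above 1000 in replicates 6 and 7 of FancgKO and in no WT library with PBS, and Gimap6 was at 169 and 166 in the FancgKO libraries with low Xist (replicates 2 and 4), also below all 4 WT libraries, which were at 201 or more. The myeloid sum was 4348 to 18600 in FancgKO and 3312 to 16870 in WT. At each shared replicate number it was higher in FancgKO. It was at 4348 against 3523 in replicate 2, 18600 against 16870 in replicate 6 and 9248 against 6296 in replicate 7. The median log2 difference, FancgKO minus WT with PBS, was 0.548 for myeloid progenitor genes kept and -0.314 for lymphoid priming genes kept (lists described below). It was -0.006 for all genes kept, and no gene of these lists was called by limma. Without FancgKO replicate 6 the Gimap6 log2 difference was -0.65. Within libraries whose titles end in d it was -1.05, and within those ending in d_2 it was -0.64, with 2 libraries a group in each. The parts of myeloid RNA and of whatever the Xist levels stand for in the difference were not tested.

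The remaining members differed less between FancgKO and WT with PBS. Gimap5 was at -0.33 (95% interval -1.13 to 0.47), Gimap8 at -0.31 (-1.40 to 0.78) and Gimap9 at -0.29 (-0.75 to 0.17) on the log2 scale. Gimap7 was at 0.70 (-0.66 to 2.06), with 21 reads in FancgKO and 36 in WT. The intervals are wide enough to hold a change by a factor of 2 or more in Gimap5, Gimap7 and Gimap8.

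Loss of Fancg on the transgenic background gave Gimap6 at 183 ± 29.7 in FancgKO_Mdm4Tg and 286 ± 109 in Mdm4Tg with PBS (SD, n = 3 each), a log2 difference of -0.59 (95% interval -1.35 to 0.17, adjusted p = 1.00 by limma; 0.0% of genes called). Blocking on the replicate number left that Gimap6 difference at -0.59, with an interval of -1.05 to -0.13, and limma did not call it (adjusted p = 0.594). Without the block, Gimap1 in the same comparison was at 0.35 (-0.44 to 1.14), on the other side of 0 from its value without the transgene. Averaging both Fancg comparisons, which was added after the values had been seen, gave Gimap6 a log2 difference of -0.72 (-1.22 to -0.21, adjusted p = 1.00 by limma; 0.0158% of genes called). When the replicate number entered the fit as a block, the averaged difference was -0.76 and limma called it (adjusted p = 0.0483), where 0.095% of all genes kept were called lower. Leaving out single libraries with the block moved that adjusted p between 0.0089 and 0.189, and it was above the threshold without any 1 of 19 libraries, for example 0.11 without FancgKO replicate 6 with PBS.

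**Figure D4:**
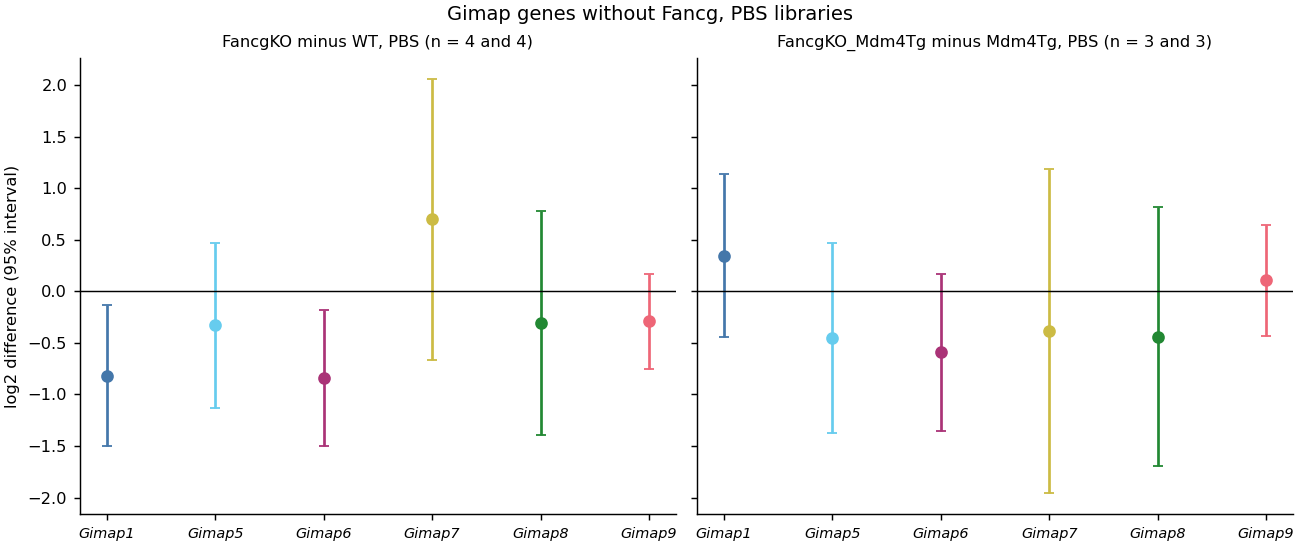
Log2 difference of the 6 Gimap genes kept between libraries without and with Fancg, PBS only (vertical axis, points with 95% intervals), without the Mdm4 transgene (left) and with it (right). The Gimap6 points are at -0.84 and -0.59, the intervals of Gimap1 and Gimap6 on the left are below 0 before adjustment for the number of genes, and all 6 intervals on the right include 0. The fit shown has no replicate block.

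The Mdm4 transgene on the knockout background was compared next. With PBS, Gimap1 was at 52.7 ± 15.2 in FancgKO_Mdm4Tg (n = 3) against 30.3 ± 10.8 in FancgKO (SD, n = 4), a log2 difference of 0.80 (95% interval 0.06 to 1.54, adjusted p = 0.93 by limma). Gimap9 differed by 0.50 (-0.00 to 1.00) and Gimap6 by 0.32 (-0.40 to 1.03). No member was called, and among all genes kept only Mdm4 itself was (0.00792%). FancgKO_Mdm4Tg against WT and Mdm4Tg against WT also called no member and 1 gene each (0.00792%), with Gimap6 at -0.53 (-1.24 to 0.19) and 0.07 (-0.65 to 0.78). Blocked on the replicate number, Gimap6 in FancgKO_Mdm4Tg against WT was at -0.67 (-1.11 to -0.23) and was not called (adjusted p = 0.689 by limma). The mean of Gimap6 in FancgKO_Mdm4Tg with PBS, 182.5, lay between those of FancgKO, 148.7, and WT, 265.1, and neither difference passed the test against the spread between libraries.

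With poly(I:C) no difference between genotypes passed the test, and group ranges of Gimap6 overlapped widely. The median log2 difference of the 6 members was 0.06 for FancgKO against WT, -0.04 for FancgKO_Mdm4Tg against FancgKO, 0.00 for FancgKO_Mdm4Tg against WT, 0.34 for Mdm4Tg against WT and -0.28 for FancgKO_Mdm4Tg against Mdm4Tg. Gimap6 was at 91.9 ± 19.9 in WT (SD, n = 3), 114 ± 85.6 in FancgKO (n = 3), 91.1 ± 44.1 in FancgKO_Mdm4Tg (n = 2) and 115 ± 20.9 in Mdm4Tg (n = 2). No member was called in any of these 5 comparisons, and in the whole table limma called 0.0% or, where the transgene differed, 0.00792% (Mdm4). Averaged over Mdm4 status, the loss of Fancg with poly(I:C) put Gimap6 at -0.16 (95% interval -0.76 to 0.45), with 0.0% of genes called.

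The difference between the genotypes' poly(I:C) differences was tested directly. Against WT, the Gimap6 difference was smaller by 0.93 on the log2 scale in FancgKO (95% interval -0.08 to 1.94), by 0.45 in FancgKO_Mdm4Tg (-0.67 to 1.56) and by 0.26 in Mdm4Tg (-0.85 to 1.37). Gimap1 gave 0.90 (-0.14 to 1.94), 0.01 (-1.15 to 1.16) and 0.51 (-0.64 to 1.66). Without the poly(I:C) library of FancgKO replicate 7, where Gimap6 was at 213 against 60.4 and 69.0, the FancgKO values were 0.36 for Gimap6 (-0.48 to 1.20) and 0.37 for Gimap1 (-0.56 to 1.30). With all libraries kept and the replicate number as a block, the Gimap6 value of FancgKO was 1.01 (0.37 to 1.64, adjusted p = 0.99 by limma). No member and no gene was called in these 3 comparisons, with or without the block (0.0% in each). Over the 10 genotype comparisons and these 3, limma without a block made 78 tests of members, of which 3 had an unadjusted p under 0.05, and the smallest adjusted p was 0.93. With the replicate number as a block, 7 of the 78 had an unadjusted p under 0.05, and the smallest adjusted p was 0.145, for Gimap6 in FancgKO against WT with PBS (log2 difference -0.92).

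Members varied together to different degrees. Over the 24 libraries the 15 pairs of members kept had Pearson correlations of 0.37 to 0.94 (median 0.70) on the log2 scale, values that share the treatment groups and each library's scaling. With each group's mean removed, Gimap5 and Gimap8 still had a correlation of 0.85 and Gimap8 and Gimap9 one of 0.75, while Gimap6 had -0.06 with Gimap9 and 0.20 with Gimap8. The median of the 15 pairs was then 0.41. Gimap6 had 0.55 with Gimap1, 0.525 with Gimap5 and -0.01 with Gimap7. Within groups, then, the member with the most RNA varied with Gimap1 and Gimap5 but little with Gimap8 and Gimap9, which varied together.

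Part of this spread followed the endings of the library titles, d (replicates 6 and 7) and d_2 (replicates 2, 4 and 8), whose meaning the labels do not give. Gimap8 was higher in d_2 than in d libraries in 8 of 8 groups, by 1.04 on the log2 scale on average, which is more than for 99.0% of the genes kept. With PBS it was at 83.8 to 145 in the 8 libraries with d_2 and at 21.9 to 72.7 in the 6 with d, without overlap. Gimap7 was higher in d_2 in 7 of 8 groups (by 0.78), as were Gimap5 (0.46) and Gimap9 (0.41). Gimap6 was higher in only 2 of 8 groups, with a mean of -0.36, and Gimap1 in 4 of 8, with a mean of -0.09. Within each kind of title the mean difference between poly(I:C) and PBS had the same sign for every member, for Gimap8 -1.56 in d and -2.02 in d_2, and for Gimap6 -0.999 and -1.374.

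**Figure D5:**
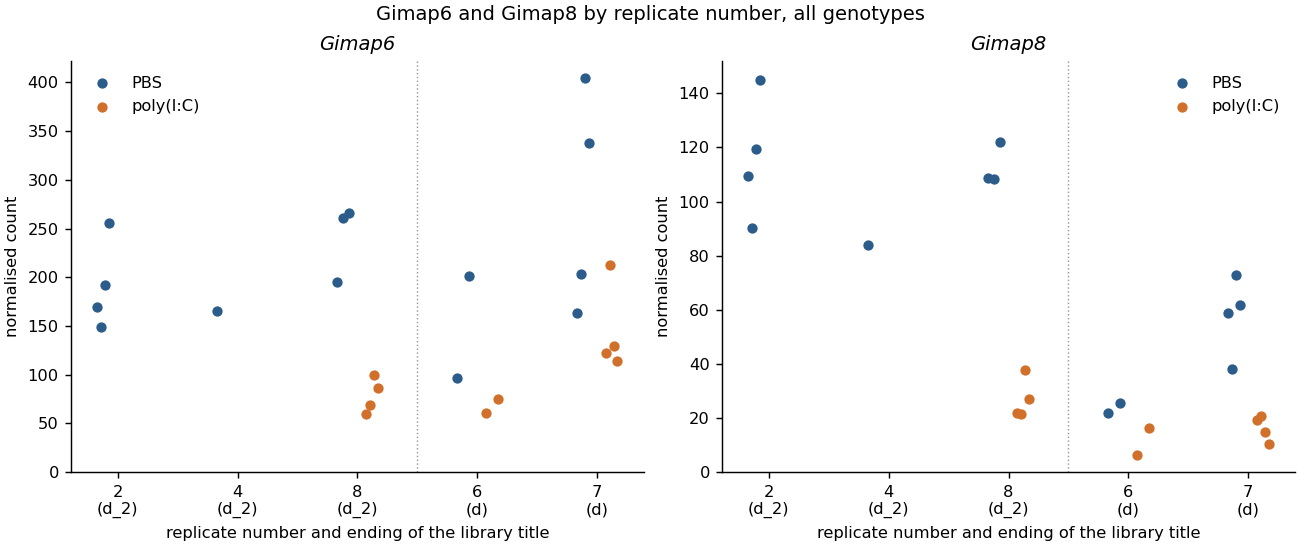
Normalised counts (vertical axes, starting at 0) of Gimap6 (left) and Gimap8 (right) in all 24 libraries by replicate number and ending of the library title (horizontal axes), PBS in blue and poly(I:C) in orange; the dotted line separates the 2 endings. With PBS, Gimap8 is at 83.8 to 145 in d_2 libraries and 21.9 to 72.7 in d libraries, while the Gimap6 ranges overlap (149 to 266 and 96.4 to 405).

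Genes with a pattern like that of the family were ranked by their correlation with the mean standardised level of the 6 members, among 7289 other genes with a mean normalised count of at least 50. Over the 24 libraries the 10 highest were Sesn1 (r = 0.96), Cdk17 (0.95), Epb41l4b (0.94), Ttc3, Retreg1 and Pag1 (each 0.93), Gm4759, Flt3, H2-Ob and Mctp2 (each 0.92). Flt3, the receptor that marks multipotent progenitors with lymphoid potential, had a median of 1110 with PBS and 525 with poly(I:C), and Sesn1, a stress-responsive inhibitor of mTORC1 signalling, 308 and 197. H2-Ob, an MHC class II modulator of B cells, had 182.5 and 80.5. With group means removed the 5 highest were Cdk17 (0.90), Smc5 (0.89), Zfyve16 (0.87), Ikbkg and Sesn1 (each 0.86). These are descriptions over libraries that share treatment and scaling, and the family mean includes Gimap7, which was kept through PBS libraries alone.

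The lists of other genes that follow were chosen with earlier results of these data known. Of 26 lymphoid priming genes kept, which early lymphoid-biased progenitors express, limma called 12 lower and 1 higher with poly(I:C) averaged over genotypes, where 11.6% of all genes kept were called lower and 11.9% higher, and their median log2 difference was -0.74 against 0.01 for all genes. Satb1, a chromatin organiser of lymphoid progenitors, differed by -1.01 (adjusted p = 0.000607), Flt3 by -1.11 (adjusted p = 0.000539) and Dntt, the terminal transferase of lymphocyte receptor genes, by -1.71 (adjusted p = 0.00362). Il7r, the interleukin-7 receptor, was not called, at -1.73 (adjusted p = 0.0659). Of 23 stem cell genes kept, 12 were called lower and 2 higher (median -0.43), with Hlf, a stem cell transcription factor, at -1.17 (adjusted p = 0.00173). Myeloid progenitor genes went the other way, with 16 of 19 called higher and 1 lower (median 1.74), Mpo, the myeloperoxidase, at 1.78 (adjusted p = 0.00142).

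Another family of GTPases, the interferon-inducible Gbp and Irg genes, gave 5 of 16 called lower and 2 higher by limma (median -0.31). Of all genes kept, 11.6% were called lower and 11.9% higher. In this list of 16, 12 had a negative difference. Among those with the highest mean, Gbp7 (-0.05) and Irgm1 (-0.13) were not called. Gbp3 at 0.56 (adjusted p = 0.00962) and Ifi47 at 0.23 (adjusted p = 0.0305) were the 2 called higher. Whether the Gimap genes differ from this family was not tested. Lists tied to what Gimap proteins do were counted next. They are small, and whether their counts differ from the shares of all genes kept was not tested. Among BCL2 family genes, which set the threshold of cell death, 0 of 12 were called lower and 3 higher (median 0.03), and of ATG8 and other autophagy genes 1 of 19 was called in each direction. Lysosome genes gave 6 of 15 called higher and none lower (median 0.28), among them Lamp1, a lysosomal membrane protein, at 0.51 (adjusted p = 0.00231). Genes of lymphocyte quiescence gave 3 of 14 lower and 1 higher (median -0.20), with Txnip at -0.62 (adjusted p = 0.000881).

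Mature lymphocytes, which express Gimap genes strongly, were looked for by their markers. The T cell receptor components Cd3e and Cd3g each had 2 reads in all 24 libraries together, with 22 libraries at 0, Cd8a had 5 reads and Cd3d 14. Cd4, a T cell coreceptor, had 128 reads and was at 0 in only 2 libraries, and Bcl11b, a T lineage factor, reached 21.2 normalised counts with PBS and 4.34 with poly(I:C). Of 18 measured T cell genes 3 passed the filter, and limma called Lck, a kinase that lymphoid progenitors also express, lower (log2 difference -1.10, adjusted p = 0.00152). The summed T cell list ran from 57.0 to 158 with PBS and from 42.0 to 84.7 with poly(I:C). The B cell receptor component Cd79a had 20 reads, while its partner Cd79b was at 18.2 to 37.3 in every library. The NK cell receptor Ncr1 had 5 reads, while Nkg7, a cytotoxic granule gene, was at a mean of 191.2. The endothelial cadherin Cdh5 had 6 reads, while Vwf, which platelet-biased stem cells also express, Tie1 and Egfl7 were at means of 95.3, 69.9 and 55.7. The summed B cell list, most of it Ighm, ran from 199 to 860 with PBS and from 162 to 389 with poly(I:C), and 2 of its 5 genes kept were called lower. Of 3 NK cell genes 1 was called higher, and of 7 endothelial genes 4 were called lower. Among all genes kept 11.6% were called lower and 11.9% higher, and these small lists were not tested against those shares. The part of other cell types in the Gimap differences was not tested.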

How the data were processed

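RNA of sorted LSK cells was sequenced on a NextSeq after library preparation with the CATS kit, per the labels' protocols. Reads were aligned with STAR to mm10, per the submitters' processing notes; the counter, the normalization tool, strand and duplicate handling are not given in the sources used here. The authors deposited 1 table of normalised counts (a signal scaled between libraries), in which each column is a whole multiple of its smallest value (100% of values at a relative tolerance of 1e-06), so reads per gene were recovered. Gene positions and names missing from the table came from the GENCODE annotation.

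Members and gene lists were chosen with earlier results of these data known. The text names all members, the genes most correlated with them, neighbours within 300 kb, and genes of the lists with the highest mean. limma 3.58.1 was fitted to log2(normalised count + 1) of the 8 group means over all 24 libraries with a mean-variance trend, after a filter of at least 10 in at least 2 libraries. P-values were adjusted by Benjamini-Hochberg over 12628 genes, with a threshold of 0.05. Intervals are 95% intervals of that fit. Alternatives were other pseudocounts, filters and scalings, no trend, array weights, fits of the compared groups alone, the title ending as covariate, the replicate number as a block, edgeR 4.0.16 and DESeq2 1.42.0 on recovered reads, and each library left out. The procedure was tested on simulated data.

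Libraries with the same replicate number deviated together, with a correlation above 0.1 in every pair, in 6 comparisons of groups that share 3 numbers (0.172 to 0.617); what the number stands for is not given in the labels. Precision is limited by reads, from 807686 to 8229715 per library, and floors cover counting error only.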

Additional observations from a re-analysis of the deposited data

Results flagged for a closer look

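Gaps between the highest or lowest library and the nearest other were examined for each of the 8 members in both groups of 4 libraries (16 groups in all), where chance alone gives about 1 in 20. In FancgKO with PBS, replicate 6 was far below replicates 2, 4 and 7 for Gimap5, at 13.15 against 37.3 to 39.2, and for Gimap6, at 96.41 against 163 to 169. The same library had the highest myeloid progenitor sum with PBS, 18600.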

How the results depend on the processing

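Under every alternative set out in the methods no Gimap gene was called in any of the 13 genotype comparisons, and the replicate block changed none of these calls. With the block, the averaged loss of Fancg in PBS libraries gave 1 member called (Gimap6) in place of 0, an analysis chosen after seeing the data, as were the counts without WT replicate 6 or FancgKO replicate 7. The direction of small differences was not stable. In that average Gimap7 (0.16) was -0.075 by edgeR and -0.081 by DESeq2 and ran from -0.28 to 0.36 over single libraries left out, and Gimap9 (-0.09) from -0.19 to 0.002. In FancgKO against WT with PBS, leaving out single libraries moved Gimap5 between -0.65 and 0.042, Gimap7 between -0.17 and 1.11 and Gimap8 between -0.80 and 0.16. The median poly(I:C) difference of the members in FancgKO ran from -1.28 to -0.47, lowest without FancgKO replicate 7 with poly(I:C); the cause was not tested. With a filter of 50 Gimap5 and Gimap7 were no longer kept and have no value. Where an arm was left with 1 library it was assumed to vary like the other groups. Depth limits Gimap3, Gimap4 and Gimap7, for which 1 read is worth 0.308 to 3.27 normalised counts.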

Other observations

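Among genes that ran opposite to the family over the 24 libraries, Mgat5, a glycosyltransferase, had the most negative correlation with the mean Gimap level (r = -0.95), with medians of 625.2 with PBS and 912.7 with poly(I:C). Asap1 (-0.94) and Mapkapk3 (-0.94) followed. With group means removed, Plod3 (-0.89), Tiam1 (-0.87) and Mpo (-0.86) were the most opposite. Mpo had a median of 2058 with PBS and 8381 with poly(I:C), and ran from 1133 to 10480 over the PBS libraries.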
